A study of Mus musculus with 12 samples.

Results

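Ngef, which encodes the guanine nucleotide exchange factor ephexin-1, was followed through 12 microarrays of mouse dorsal root ganglia together with Rasgrf1, Eph receptors and ephrins. Members were the 10 genes Ngef, Rasgrf1, Epha3, Epha4, Epha5, Epha7, Ephb1, Ephb2, Efna5 and Efnb2, and each probe annotated to them was used whatever its result. The platform annotation gave 17 probes for 9 of the 10 genes, out of 16593 genes and 25697 probes on the array. Ephb2 had no probe annotated to it here. Ngef and Rasgrf1 were chosen on the comparison of mutant with control pools, so their differences between these groups are descriptions and carry no evidence of their own. The other 8 genes were listed by family, with earlier results of these data known.

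Lumbar ganglia of levels 3 to 6 were pooled from mice aged 15 days, and total RNA of 1 pool was hybridised to each array. The tested animals were conditional mutants in which Isl1-Cre acts on c-Maf (6 pools), and the controls, labelled wildtype, gave 6 further pools. Both genotypes had the strain background C57/BL6;129Ola mixed. Isl1-Cre acts in cells that express the transcription factor Isl1, a class that includes sensory neurons, and c-Maf, encoded by Maf, is a leucine zipper transcription factor. Replicates 1 to 3 of both genotypes lay on one BeadChip, called chip 1, and replicates 4 to 6 of both on another, called chip 2. The number of mice in a pool and the alleles the controls carried are not stated in the labels, so p-values measure the spread between pools, which may in part be technical.

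Eph receptors are receptor tyrosine kinases that bind ephrins on the surface of neighbouring cells. A-type ephrins are held in the membrane by a lipid anchor, whereas B-type ephrins span it and can signal back into the cell that carries them. Ephexin-1 binds EphA receptors, in particular EphA4, and acts downstream of them in the collapse of growth cones. Rasgrf1 encodes a calcium-dependent exchange factor for Ras and Rac. In the sensory ganglion, Eph receptors and ephrins are best known from axon guidance.

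A stretch just upstream of the Ngef start is shown because Ngef was the one member called in the genotype comparison. In build GRCm38.p6 its start lies close to that of Neu2, a sialidase gene read from the opposite strand, and the 156 bases between the 2 starts, chr1:87573871-87574026, read on the minus strand toward Ngef as follows.
Ngef upstream: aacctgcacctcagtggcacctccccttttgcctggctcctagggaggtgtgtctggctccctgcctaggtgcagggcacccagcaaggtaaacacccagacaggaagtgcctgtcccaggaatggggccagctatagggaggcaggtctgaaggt
This stretch held 60.9% G or C. Capitals would mark CpG dinucleotides, and nothing in it is capitalised because it held 0 of them. Neither motif searched occurred in it. The motifs were the Maf half-site TGCTGAC on either strand and the palindromic AP-1 site TGANTCA, and a half-site can overlap an AP-1 site because its last letters can begin one. Across the 11 promoter windows of all 10 members, each of 300 bases, 0 held either motif. Among 32851 windows of all genes, 4.67% held the Maf half-site and 7.81% the AP-1 site. A match of letters is a description of the window and not a binding site.

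Values are log2 levels after background correction and quantile normalization unless a deposited intensity is named. A probe was detected on an array where its deposited detection p-value, read as a comparison with that array's negative controls, was under 0.05. Probes detected on at least 6 of the 12 arrays entered the test, which left 13177 probes in all and 13 of the 17 member probes. Between 12822 and 13491 probes were detected on an array, and precision is limited by the number of arrays. The Maf probe was detected on 0 of 6 mutant arrays, at 4.49 to 4.70, and on 6 of 6 control arrays, at 7.11 to 7.87. Among markers of the labelled tissue, 10 of 12 sensory neuron genes had a tested probe. Of these 0 were called, where 0.271% of all genes tested were, and 5 lay above and 5 below 0. Isl1, whose name the Cre line carries, was the lowest of them (-0.30, SE 0.13, limma adjusted p = 0.77). Tubb3 was detected on only 3 of 6 arrays of each group. Of 12 markers of spinal cord cells 3 were tested and 0 called. Among these Aqp4 was detected on 6 of 6 mutant and 6 of 6 control arrays, at mean levels of 7.68 and 7.76, and Slc5a7 and Slc1a2 on 3 to 4 arrays of each group. Gfap, Olig2, Mobp, Slc32a1 and Gad2 were detected on 0 arrays. In bulk ganglia, fewer cells of a type and less RNA per cell cannot be told apart.

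Ngef stood near the detection limit of the array. Its probe was detected on 6 of 6 mutant arrays and on 0 of 6 control arrays. Deposited intensities in mutant pools 1 to 6 were 118, 113, 107, 86.7, 91.7 and 103. In control pools 1 to 6 they were 64.6, 88.4, 85.2, 85.9, 68.4 and 72.7. On this scale the groups overlapped, because control pool 2 lay above mutant pool 4. Detection p-values were 0.0075 to 0.044 in mutant pools and 0.060 to 0.70 in control pools, so control pools 2 and 3 (0.060 and 0.073) missed detection narrowly, as mutant pools 4 and 5 (0.036 and 0.044) narrowly passed it.

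**Figure D1:**
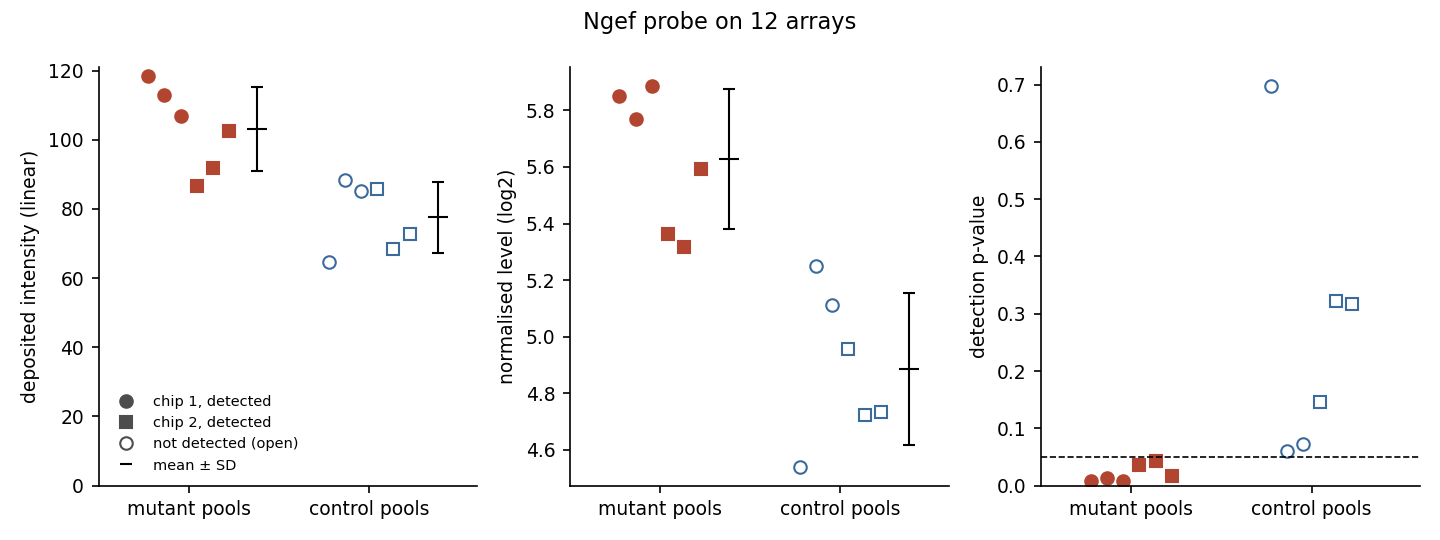
Ngef probe in 6 mutant pools (left of each panel) and 6 control pools (right), as deposited intensity, normalised log2 level and detection p-value, with the 0.05 threshold dashed. Circles are chip 1, squares chip 2, filled symbols detected arrays, and bars the mean ± SD; the groups overlap in intensity and not in normalised level.

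After normalization, Ngef levels in mutant pools 1 to 6 were 5.85, 5.77, 5.89, 5.36, 5.32 and 5.59. In control pools 1 to 6 they were 4.54, 5.25, 5.11, 4.96, 4.72 and 4.73. The groups no longer overlapped: the lowest mutant pool, replicate 5, stood just above the highest control pool, replicate 2. Mean levels were 5.63 ± 0.25 in mutant pools and 4.89 ± 0.27 in control pools (SD, n = 6 each), a difference of 0.74 (SE 0.14, 95% interval 0.45 to 1.04, limma adjusted p = 0.037). Because the probe was not well above background on any control array, the fold is given as a bound on the group means, at least 1.28-fold higher in mutant pools. This bound takes no account of the spread between pools and was computed at the main offset only, so it is not an assured minimum. The Ngef probe entered the test only through the 6 mutant arrays, so a gene in its position had to differ.

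Ngef was the one called probe among the 13 tested member probes, at rank 28 by p among the 31 called probes. Over all probes, 0.235% were called in either direction and 0.0228% were called higher in mutant pools, and 0.152% had all mutant pools above all control pools. The call did not survive every setting. With the normexp offset raised to 50 the difference was 0.39 (adjusted p = 0.063), and it was called in 8 of 23 other settings that tested it.

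Ngef levels can also be set out by chip. All 3 mutant pools of chip 1 (5.77 to 5.89) lay above all 3 of chip 2 (5.32 to 5.59). Control pools did not separate in this way, with 4.54 to 5.25 on chip 1 and 4.72 to 4.96 on chip 2. With genotype in the fit, chip 2 minus chip 1 over both genotypes was -0.29 in limma (SE 0.12, adjusted p = 0.51). That chip difference did not pass adjustment over all probes. The limma difference of mutant from control was 0.87 (adjusted p = 0.41) within chip 1 and 0.61 (adjusted p = 0.60) within chip 2, with 3 pools a group. The interaction of genotype and chip was -0.25 (SE 0.23) and did not pass the test. With chip as a block the adjusted p was 0.015.

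Rasgrf1 had 4 probes, and they fell into a bright and a dim pair. The bright pair is annotated to the transcript NM_011245 and the dim pair to NM_001039655. On the brightest probe, ILMN_1233146, mutant pools 1 to 6 had levels of 10.53, 10.63, 11.02, 10.77, 10.90 and 10.84. Control pools 1 to 6 had 10.02, 10.43, 10.63, 10.22, 10.37 and 10.14 on it. Control pool 3 reached into the mutant range, and the other 5 control pools lay below every mutant pool. The means were 10.78 ± 0.18 and 10.30 ± 0.22 in mutant and control pools (SD, n = 6 each), a difference of 0.48 (SE 0.11, 95% interval 0.24 to 0.72) that did not pass the threshold (limma adjusted p = 0.15).

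The second bright probe, ILMN_2699663, had levels of 9.35, 9.73, 9.93, 9.42, 9.76 and 9.81 in mutant pools 1 to 6. In control pools 1 to 6 its levels were 8.92, 9.39, 9.46, 9.07, 8.999 and 9.29. Here mutant pools 1 and 4 lay within the control range. The difference was 0.48 (SE 0.12, adjusted p = 0.25), as large as that on the brightest probe. The bright probes moved together over the 12 arrays (Pearson r = 0.89), and still did after the mean of each genotype was taken away (r = 0.72).

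The dim pair gave smaller differences. ILMN_3132050 was detected on 5 of 6 mutant and 5 of 6 control arrays and averaged 5.65 ± 0.34 in mutant and 5.47 ± 0.22 in control pools, a difference of 0.18 (95% interval -0.14 to 0.50, adjusted p = 0.92). ILMN_3055230 was detected on 6 of 6 mutant and 4 of 6 control arrays and averaged 5.56 ± 0.25 in mutant and 5.51 ± 0.35 in control pools, a difference of 0.05 (95% interval -0.29 to 0.38, adjusted p = 0.99). The 4 probes thus disagree in size, with the dim pair close to the detection limit, and whether the transcripts differ was not tested. Within chips the brightest probe differed by 0.36 on chip 1 and 0.60 on chip 2, and by 0.42 to 0.54 when single pools were left out.

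**Figure D2:**
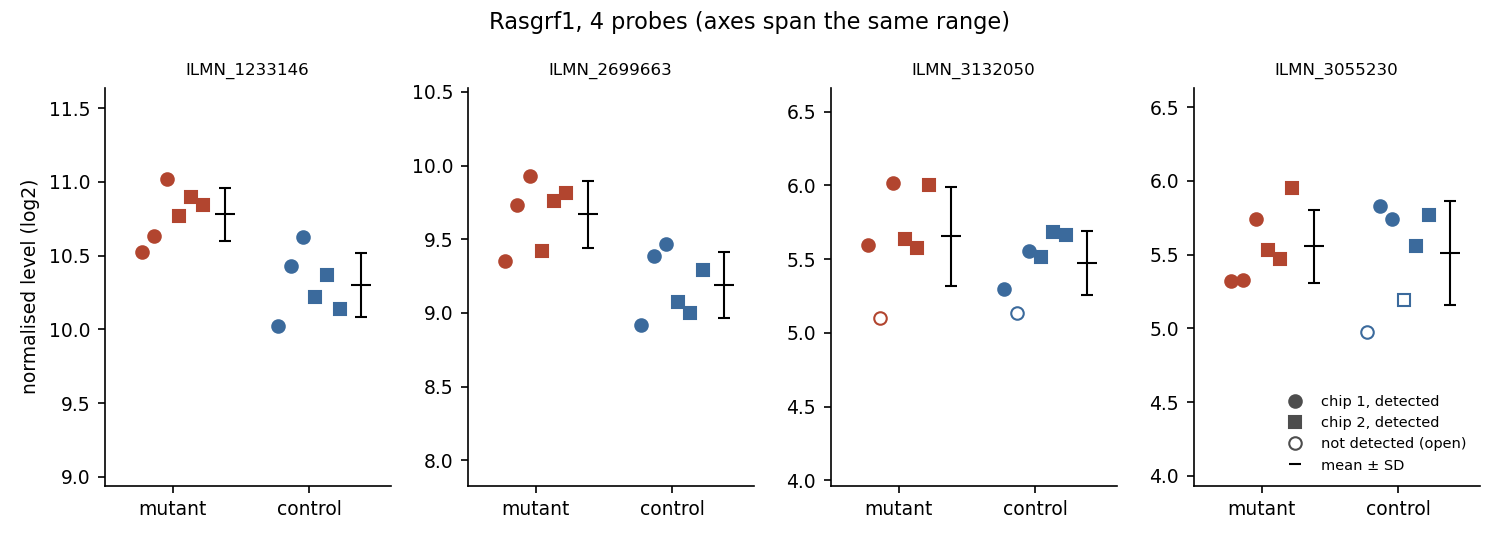
Normalised log2 levels of the 4 Rasgrf1 probes in 6 mutant pools (left) and 6 control pools (right) of each panel, with mean ± SD; open symbols are arrays without detection, circles chip 1 and squares chip 2. The bright probes ILMN_1233146 and ILMN_2699663 differ by 0.48 each, the dim ones by 0.18 and 0.05.

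None of the Eph receptors and ephrins differed detectably between genotypes. Of their 12 probes, 8 were tested, covering 6 of the 8 genes, and 0 of 8 were called by limma, where 0.235% of all probes were. At an unadjusted p under 0.05 the count was also 0 of 8, against 6.34% of all probes. Groups that did not overlap were seen in 0 of 8. Over all probes 0.152% had all mutant pools above all control pools, and the opposite order was not counted. For 8 probes a count of 0 is near these shares. The 8 differences lay between -0.15 and 0.21, with 2 above and 6 below 0 and a median of -0.03, against a median of 0.003 over the 9223 genes tested. Their 95% intervals reached from -0.36 to 0.50 at the extremes, so the data leave room for moderate differences.

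Among A-type receptors, Epha7 gave the highest of these values. This receptor is known for roles in axon mapping and has truncated forms without kinase activity. Its bright probe had levels of 6.94, 6.13, 6.27, 6.91, 6.59 and 6.83 in mutant pools 1 to 6. Control pools 1 to 6 had 6.32, 6.32, 6.55, 6.46, 6.47 and 6.27. Mutant pools 1, 4, 5 and 6 lay above all control pools, and mutant pools 2 and 3 below the lowest of them. Levels averaged 6.61 ± 0.34 in mutant and 6.40 ± 0.11 in control pools (SD, n = 6 each), and the difference of 0.21 (SE 0.13, 95% interval -0.08 to 0.50) did not pass the test (adjusted p = 0.89). It was 0.05 on chip 1 and 0.37 on chip 2, and the interaction of 0.33 (SE 0.26) did not pass the test. Its other 2 probes were detected on 1 of 6 and 0 of 6 mutant arrays and on 0 of 6 control arrays each.

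Epha3 had 3 tested probes, and they gave differences of -0.02, 0.04 and -0.07. The receptor binds A-type ephrins, ephrin-A5 among them. On its brightest probe, ILMN_2831656, levels were 5.89 to 6.64 in mutant pools (median 6.30) and 6.03 to 6.64 in control pools (median 6.24), so the groups covered nearly the same range. Its 95% interval was -0.30 to 0.26. The probe ILMN_2629805 gave the narrowest interval of the members, -0.22 to 0.09, but it stood at the detection limit. It was detected on 4 of 6 mutant and 5 of 6 control arrays, at mean levels of 5.26 and 5.32. Levels there are compressed toward background, so the narrow interval is no sign of a better measured gene.

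Epha5 was at the edge of detection, on 3 of 6 mutant and 4 of 6 control arrays. Its levels were 5.09 to 5.74 in mutant pools and 5.16 to 5.78 in control pools, and they differed by -0.02 (95% interval -0.28 to 0.24). Epha4, the receptor with the closest known tie to ephexin-1, was detected on 0 of 6 mutant and 0 of 6 control arrays. Its deposited intensities were 62.2 to 89.8 in mutant pools and 71.2 to 90.6 in control pools, so it was not well above background and no fold is given. A single probe at background does not show that the transcript was missing from the ganglia.

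**Figure D3:**
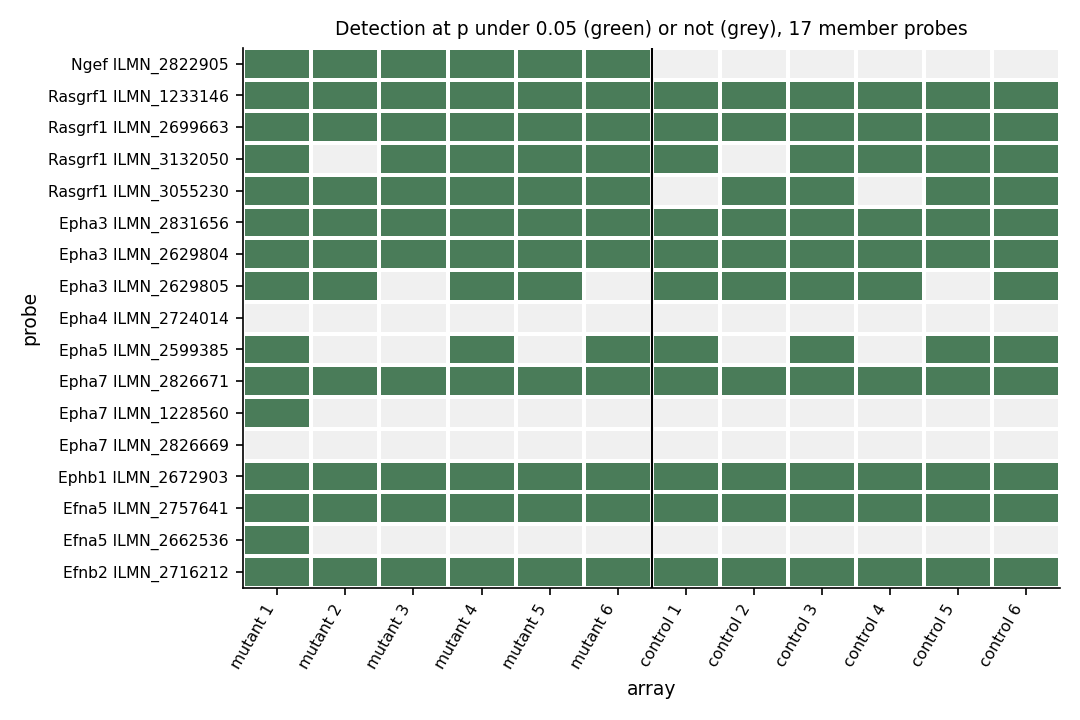
Detection of the 17 member probes (rows) on 6 mutant arrays (left of the line) and 6 control arrays (right); green cells have a detection p-value under 0.05. Ngef is detected on the 6 mutant arrays and on 0 control arrays, Epha4 on 0 arrays.

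The B-type receptor Ephb1 was detected on all 12 arrays. It had levels of 6.16 to 6.55 in mutant pools (median 6.38) and 6.09 to 6.73 in control pools (median 6.46). The mutant range lay inside the control range, and the difference was -0.08 (SE 0.11, 95% interval -0.32 to 0.15, adjusted p = 0.95).

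Of the ligands, Efnb2, a transmembrane ephrin also known from vessels, had levels of 6.83, 6.28, 6.55, 6.47, 6.56 and 6.52 in mutant pools 1 to 6. Control pools 1 to 6 had 6.62, 6.71, 6.80, 6.45, 6.63 and 6.93. The groups overlapped, with mutant pool 1 second highest of the 12. The difference was -0.15 (SE 0.10, 95% interval -0.36 to 0.06, adjusted p = 0.89), and it was -0.16 on chip 1 and -0.15 on chip 2.

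Efna5, a lipid-anchored ephrin with a repellent action on many axons, gave deposited intensities of 1593 to 2694 in mutant pools and 1889 to 2293 in control pools on its bright probe. Both the lowest and the highest pool were mutant, replicates 3 and 1. Log2 levels averaged 10.93 ± 0.16 in mutant and 10.98 ± 0.09 in control pools (SD, n = 6 each), a difference of -0.05 (95% interval -0.22 to 0.13, adjusted p = 0.96). The second Efna5 probe was detected on 1 of 6 mutant and 0 of 6 control arrays.

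**Figure D4:**
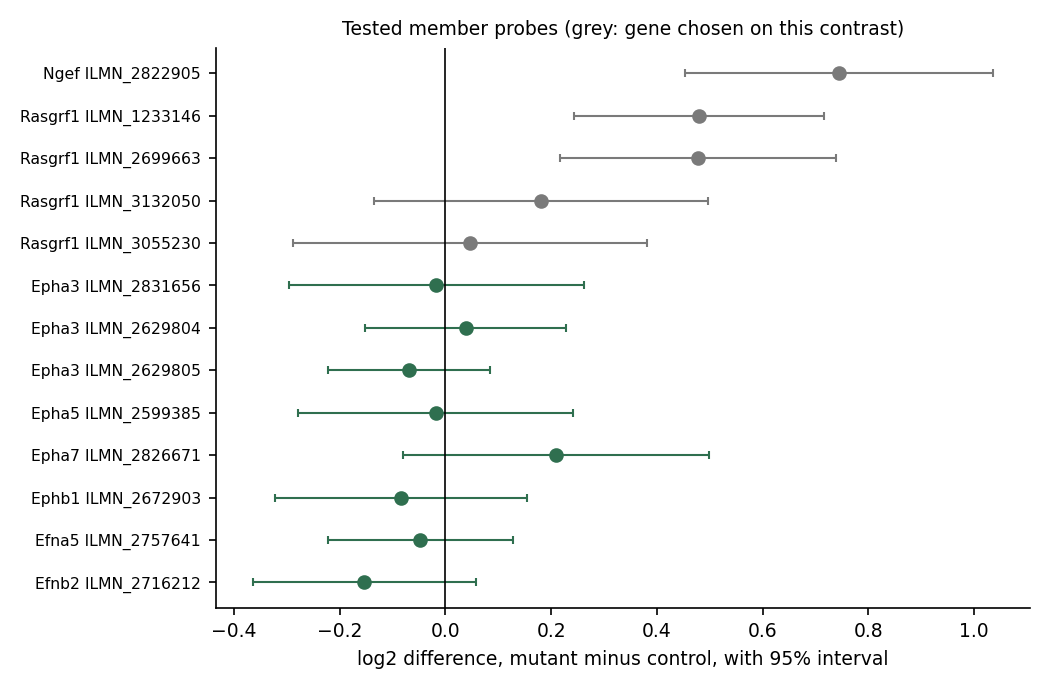
Log2 differences, mutant minus control, of the 13 tested member probes with 95% intervals from the limma fit; grey marks the genes chosen on this contrast, green the Eph receptors and ephrins. The 8 green intervals all include 0.

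Across chips, 0 of 13 member probes were called, where 0% of all probes were. Ngef was the 1 of 13 member probes with an unadjusted p under 0.05, where 1125 of all 13177 tested probes had one. A count of 1 in 13 is near that share. Among the members the differences of chip 2 from chip 1 ran from -0.29 to 0.23. Whether a genotype difference changed with the chip gave 0 called probes over the array in limma, with 372 at an unadjusted p under 0.05, of which 0 were member probes.

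In the wider families, Ngef was the one called gene. Among 9 A-type Eph receptors 4 genes were tested, among 5 B-type receptors 2 and among 8 ephrins 5, and 0 of these 11 were called in either direction, where 0.271% of the 9223 genes tested were. A count of 0 in lists of this size is near that share. Epha8 (-0.11), Ephb6 (0.08), Efnb3 (-0.11) and Efna1 (0.07) were among the genes tested beside the members. In the ephexin family of exchange factors, 3 of 6 genes were tested, and Ngef was the 1 called. Arhgef15, known as ephexin-5, differed by -0.07 (adjusted p = 0.96) and Arhgef19, a related exchange factor, by 0.11 (adjusted p = 0.97).

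In Ras regulation and among the adaptors, kinases and proteases of Eph signalling 0 genes were called, which for lists of this size is also near the share of 0.271% over all genes. In the list of Ras exchange factors and Ras proteins, 0 of 6 tested genes were called. Next to Rasgrf1 stood Rras, a small GTPase, with 10.23 ± 0.08 in mutant and 10.03 ± 0.11 in control pools (difference 0.20, adjusted p = 0.58). Rasgrp3, an exchange factor gated by diacylglycerol, differed by -0.25 (adjusted p = 0.89). Of 4 tested Ras GTPase activating proteins 0 were called, with Dab2ip at 0.13 and Rasa1 at -0.15.

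Among 19 tested adaptors, kinases and proteases 0 were called, with a median of -0.02. Cdk5r1, the p35 activator of the kinase Cdk5, which phosphorylates ephexin-1, differed by -0.17 (adjusted p = 0.82). The lowest and highest changes of this list were -0.17 and 0.15.

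Immune cell markers had positive differences beside those of Ngef and Rasgrf1, and no immune marker passed the test. Over all genes tested, 4707 of 9223 were above 0. All 5 tested of 8 macrophage and immune genes were above 0, with 0 called, and their summed log2 level was 9.45 to 9.84 in mutant pools and 8.99 to 9.50 in control pools. Ptprc, a marker of leukocytes in general, was detected on 0 arrays. All 3 tested of 6 neutrophil genes were above 0 too, with 0 called, and their summed level was 8.39 to 10.80 in mutant and 7.35 to 9.06 in control pools. Of 6 tested glial genes 5 were below 0, with 0 called, at a summed level of 14.17 to 14.48 in mutant and 14.22 to 14.50 in control pools. Mbp and Pmp22, the brightest of these, weigh most in that sum. Pmp22 was the 1 above 0 (0.06), Mbp differed by -0.25 (limma adjusted p = 0.52) and S100b by -0.36 (adjusted p = 0.14). All 6 fibroblast and meningeal genes were below 0, with 0 called and a median of -0.20. Their summed level was 13.15 to 13.58 in mutant and 13.22 to 13.64 in control pools, with Dcn (-0.02) the brightest. Of 8 skeletal muscle genes 3 were tested, and Myh8, a myosin heavy chain of developing muscle, was called lower in mutant pools (-1.25, limma adjusted p = 0.0080). The summed level of the muscle genes was 7.42 to 7.86 in mutant and 8.02 to 8.74 in control pools, with Myh8 the brightest of the 3 in control pools. The other 2 tested muscle genes were not called: Acta1 differed by 0.07 (limma adjusted p = 0.96) and Atp2a1 by -0.20 (adjusted p = 0.87). Ckm, Myh4 and Mylpf were detected on 0 arrays. The part of these cells in the levels of Ngef and Rasgrf1 was not tested.

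The 5 genes whose levels over the 12 arrays were most like those of Ngef were Kirrel3 (r = 0.93), Lyz2 (r = 0.92), Atg16l1 (r = 0.89), Eif4e2 (r = 0.89) and Prkd1 (r = 0.88). Once the genotype means were taken away, the correlations were 0.81, 0.77, 0.77, 0.90 and 0.78 in the same order. All 12 arrays share their pools with the genotype comparison that chose Ngef, so the first set of values carries that difference. Kirrel3 encodes an adhesion molecule of sensory axons and Lyz2 the lysozyme of myeloid cells, and 0 of the 5 genes were called. Each gene stands here by its brightest probe. The other tested probe of Prkd1 correlated with Ngef at only 0.105 over the 12 arrays, and that of Lyz2 at 0.826.

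For Rasgrf1, the most alike were Asb2 (r = 0.94), Celsr3 (r = 0.92), Adcy8 (r = 0.92), Lmcd1 (r = 0.90) and Wnt7a (r = 0.90). Without the genotype means their correlations were 0.85, 0.86, 0.79, 0.75 and 0.71. The first set of values carries the genotype difference on which Rasgrf1 was chosen. Limma adjusted p of the 5 genes was 0.10 to 0.78 between genotypes. Lmcd1 differed by 0.62 on its brightest probe and by 0.52 and 0.09 on its other tested probes. Celsr3 encodes an atypical cadherin needed for axon tracts and Adcy8 a calcium-stimulated adenylyl cyclase. Ngef and the brightest Rasgrf1 probe correlated at 0.78 over the arrays and at 0.34 without the genotype means, and the first value carries the difference on which both were chosen.

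Genes beside Ngef on chromosome 1 were looked at after 2 of its 5 most alike genes had been seen to lie there, so the values that follow are descriptions chosen with their size known. Among the 10 tested genes on either side of Ngef in RefSeq order, 3 of 20 correlated with it above 0.557, the 95th percentile over 9222 genes, and around Rasgrf1 on chromosome 9 the count was 1 of 20 above 0.572. Eif4e2, a cap-binding translation factor 3 tested genes before Ngef, Neu2, a sialidase gene directly after it, and Atg16l1, an autophagy gene 2 after it, were the 3 genes. After the genotype means were taken away the correlations were 0.90 for Eif4e2, 0.90 for Neu2 and 0.77 for Atg16l1, and Eif4e2 and Neu2 ranked 3 and 4 of all genes.

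**Figure D5:**
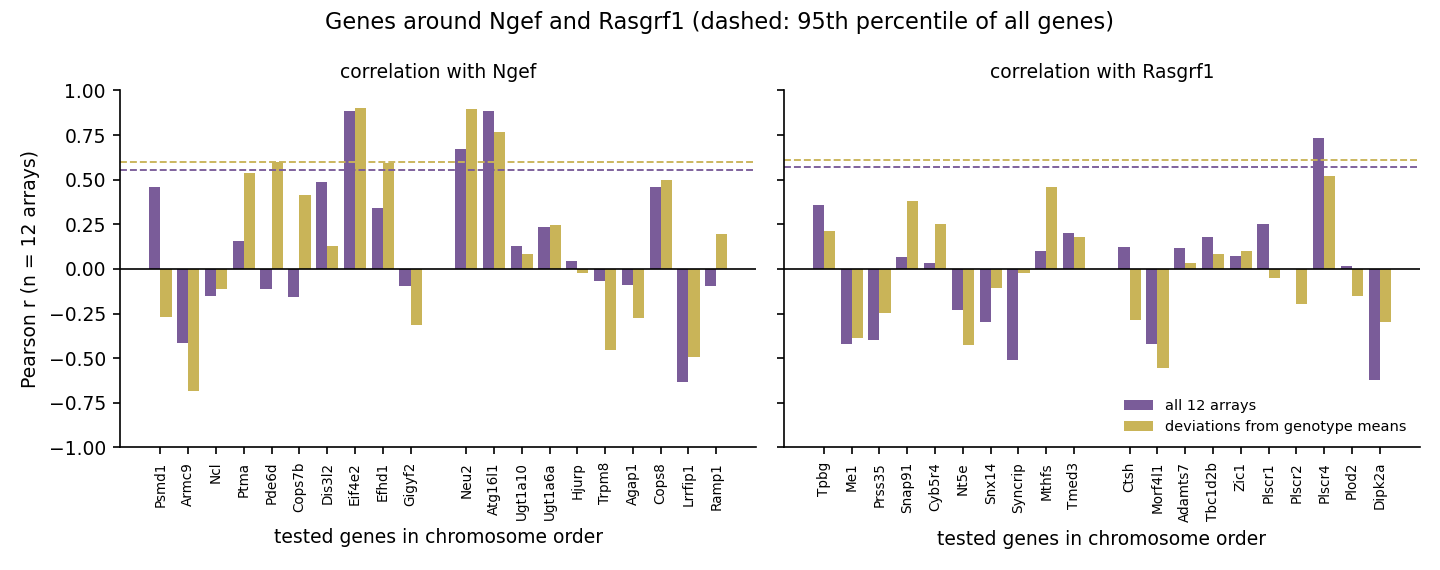
Pearson correlation over 12 arrays of the 10 tested genes on either side of Ngef (left) and of Rasgrf1 (right), in chromosome order, with their levels as they are and as deviations from the genotype means; dashed lines are the 95th percentiles over 9222 genes. Eif4e2, Neu2 and Atg16l1 rise above both lines beside Ngef.

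The Eif4e2 probe ILMN_2593993 had levels of 9.41, 9.22, 9.21, 8.76, 8.29 and 9.04 in mutant pools 1 to 6, and 8.29, 8.89, 8.73, 8.74, 8.21 and 8.27 in control pools 1 to 6. Mutant pools 1, 2 and 3, which were highest for Ngef, were highest here, and mutant pool 5 was lowest of its group for both. The probe differed by 0.47 between mutant and control pools (SE 0.18, limma adjusted p = 0.68). The other 2 tested Eif4e2 probes did not share the pattern: they differed by -0.15 and 0.14 and correlated with Ngef at -0.68 and 0.26. Atg16l1 had levels of 9.86 to 10.15 in mutant pools and 9.58 to 9.89 in control pools (difference 0.22, adjusted p = 0.60). Neu2 had 6.11 to 6.81 in mutant pools and 6.12 to 6.67 in control pools (difference 0.10, adjusted p = 0.94). The cause of these correlations was not tested.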

How the data were processed

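Single-colour Illumina BeadChips measured total RNA of 12 pools. The deposited intensity of each probe came from GenomeStudio, per the submitters' processing notes (no version given), without normalization between arrays. The deposited detection p-value columns are named in the file headers. A second deposited table of processed intensity ranked the probes of each array identically and served as an alternative, made by steps not stated. Its values below 16 were raised to 16 before log2 was taken. Log2 levels were computed with neqc (offset 16) in limma 3.58.1 under R 4.3.3, and probes with detection on 6 or more of 12 arrays (p under 0.05) were tested with lmFit and eBayes on genotype, mutant minus control, with Benjamini-Hochberg adjustment over 13177 probes. The limma fit with its adjustment was tried on simulated levels. Background correction, normalization, the detection filter and the bound were not simulated. Symbols came from the platform annotation, matched to RefSeq for GRCm38.p6, and a list gene was represented by its brightest tested probe. The bound for Ngef sets the mutant mean against the mean over control arrays of the higher of the lowest detected signal and the probe's own. A list's summed level is log2 of its tested genes' summed linear levels. Promoter windows are those of RefSeq, 250 bases before to 50 after a start. Named genes were all members, each pathway list's called genes and up to 3 with the smallest p, marker genes at background, and the 5 genes most correlated with Ngef and with Rasgrf1; the detected markers and the chromosomal neighbours were named after their values were seen. Members, lists and this rule were chosen with earlier results of these data known. Background correction, normalization, filter, array weights, chip, replicate block and single pools were varied. One further gene list is not reported here.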

Additional observations from a re-analysis of the deposited data

How the results depend on the processing

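For the Eph receptors and ephrins the count of called probes was 0 in all 25 other settings tried, and for Rasgrf1 the difference kept its direction and its side of the threshold in all 25 (adjusted p 0.067 to 0.97). The Ngef difference stayed above 0 in the 23 settings that tested it, from 0.39 to 0.97. The highest value, 0.97, came from the processed table. There control pools 1, 4, 5 and 6 lay below the floor of 16 and were raised to it, so the floor partly set this value. The call of Ngef was lost in 15 settings, with limma adjusted p over the 23 from 0.015 to 0.60. It was lost with a normexp offset of 50 (0.39), without background correction (0.42), without a filter (0.74), with array weights (0.71), within chip 1 (0.87) and within chip 2 (0.61). The call was also lost in 8 of 12 leave-one-out fits, those without mutant pools 1, 2, 3 or 6 or control pools 1, 4, 5 or 6. Over all 12 such fits, the 4 that kept the call included, the difference ranged from 0.67 to 0.82 (adjusted p 0.027 to 0.12). Requiring detection on all 12 arrays or at p under 0.01 left Ngef untested. Over all probes 31 were called, against 4 within chip 1, 1 within chip 2 and 21 to 36 with single pools left out. Chip 2 against chip 1 gave 0 called probes (0 to 10 with single pools left out, the 10 without control pool 1), and genotype by chip 0 (0 to 1, the 1 without mutant pool 1).

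The leave-one-out fits kept the probes of the 12-array filter. This was settled after the data had been seen, because a first version applied the filter again to the remaining 11 arrays, and then Ngef was not tested without any one mutant pool, was lost in 4 of the 6 fits left (without control pool 1, 0.67; 4, 0.755; 5, 0.71; 6, 0.71; adjusted p over the 6 from 0.029 to 0.12), and the counts were 19 to 36 called probes, 0 to 11 for chip and 0 to 1 for genotype by chip. Deviations of same-numbered pools correlated at -0.12 to 0.19. Pools of different numbers were not compared, so whether replicate numbers pair the pools was not settled. With a replicate block the Ngef difference was 0.74 (adjusted p = 0.054) and 23 probes were called. Probes at the detection limit, Ngef, Epha5, the Epha3 probe ILMN_2629805 and the dim Rasgrf1 pair among them, have levels compressed toward background.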
